A study of Mus musculus with 6 samples.

Results

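The regulators of G protein signalling (RGS proteins) switch off signals from receptors that couple to heterotrimeric G proteins. Their shared RGS domain speeds up GTP hydrolysis by the G protein alpha subunit, so that the signal ends sooner. Rgs2 acts with preference on Gq, the alpha subunit through which the angiotensin receptor activates phospholipase C, and is therefore regarded as a brake on Gq-coupled receptors in heart and vessel. Mice that lack Rgs2 have raised blood pressure. The set examined here was made of 10 RGS genes of mouse heart, out of 18193 genes with a probe set of their own on the array. Their members were taken as every probe set that the platform annotation assigned to exactly 1 of Rgs2, Rgs3, Rgs4, Rgs5, Rgs6, Rgs10, Rgs12, Rgs14, Rgs16 and Rgs19, which gave 27 probe sets, and the rule itself used no measured value, although the family was picked with earlier results of these data known.

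RNA abundance had been measured on Affymetrix mouse genome arrays in heart tissue of C57BL/6 mice, with 3 arrays from mice overexpressing hAT1R, the human type 1 receptor for the vasoconstrictor angiotensin II, and 3 from normal C57BL/6 mice. By the series' description, age and sex had been matched. The sources used here do not give the promoter that drives the transgene, the number of founder lines, the age, or whether each array held 1 animal. The p-values therefore cover only the spread between these 6 arrays, part of which may be technical, and their small number limits the precision. Values were deposited as log2, with 1 per probe set and array.

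Several facts of the series bear on each direction given here. In the chip lot field of the instrument's records, the word typed for all 3 arrays labelled transgenic was "control". For all 3 labelled non-transgenic it was "transgene", and taking those words in place of the labels would turn every sign. No probe set used here measured the human transgene, so the receptor gave no check of the labels, and the groups are called by their labels throughout. Array medians lay between 3.25 and 3.31. Xist, the RNA of the inactive X chromosome and so a mark of female tissue, was high on 2 labelled transgenic arrays and 1 non-transgenic array. By this RNA the groups were not alike in sex, against the matching that the description states. All 3 labelled transgenic arrays and non-transgenic array 1 had been washed on fluidics station 2, and the other 2 on station 3. The labelled transgenic arrays were the first 3 to be scanned, so scan order and group cannot be told apart. The 10 cardiomyocyte markers were all bright, with gene means of at least 13.59 (log2), so the defining markers of the labelled tissue were present.

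The largest difference in the family was at Rgs2. Its 3 bright probe sets were between 2.98-fold and 3.41-fold lower in the labelled transgenic hearts, with no overlap between the groups, but none passed limma's moderated test over all probe sets at an adjusted p under 0.05. Nor did any other RGS probe set. Rgs10 and Rgs19 were slightly higher and Rgs4 and Rgs12 slightly lower at their brightest probe sets, while Rgs6 was at -0.13 on the log2 scale and Rgs3 and Rgs5 had differences close to 0. Rgs14 and Rgs16 lay below the level at which a difference was tested.

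Of the 27 probe sets, 20 passed the brightness filter (a mean over the 6 arrays above log2 3.29, the median of that mean) and were tested together with all other probe sets kept, 22518 in all. The 7 below it were the only probe set of Rgs14, the 3 of Rgs16, 2 of the 3 of Rgs12 and 1 of the 2 of Rgs6. In limma's fit 0 of the 20 probe sets passed, where 0.218% of all probe sets tested did. At an unadjusted p under 0.05 there were 6 of 20, against 16.4% of all probe sets, with 4 lower (6.98% of all) and 2 higher (9.41%), and 3 of the 6 were probe sets of Rgs2 alone. The 2 groups did not overlap at 5 of the 20, against 23% of all probe sets, with 4 lower (9.78% of all) and 1 higher (13.2%) in the labelled transgenic group. Over both directions together, 5 of 20 is near the background, with more lower and fewer higher than among all probe sets. Of the 4 lower probe sets 3 were those of Rgs2, so the counts rest largely on 1 gene. With 1 probe set per gene, 0 of 8 RGS genes passed (0.227% of all genes tested) and 3 had an unadjusted p under 0.05 (18.2% of all genes). The median change of the 8 was -0.08 on the log2 scale, and that of all 11016 genes tested was 0.01. Adjusted p-values over the 20 probe sets ran from 0.12 to 0.994.

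**Figure D1:**
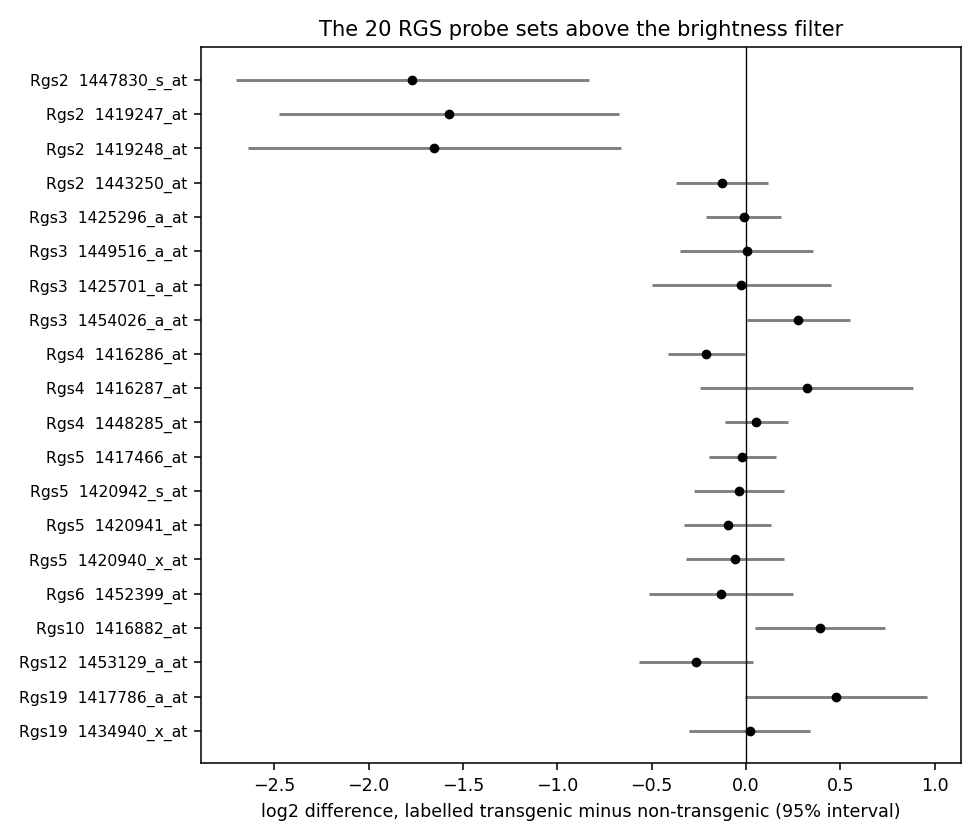
Log2 difference (labelled transgenic minus non-transgenic, horizontal axis) of each of the 20 RGS probe sets above the brightness filter, with its 95% interval from limma. The 3 bright Rgs2 probe sets lie between -1.77 and -1.58, and the other 17 lie within 0.5 of 0.

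**Figure D2:**
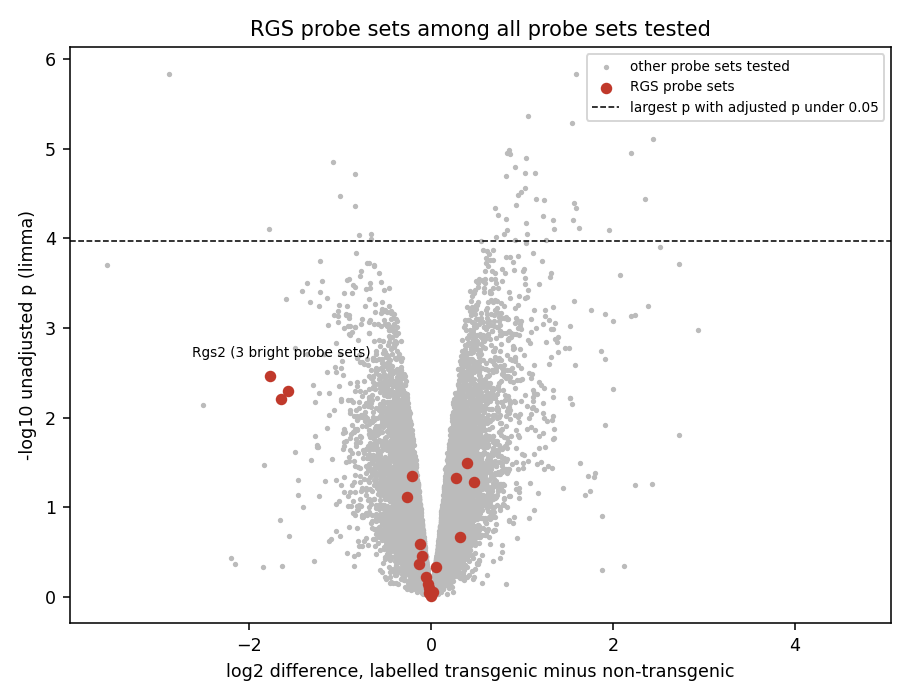
Log2 difference (horizontal axis) against -log10 of the unadjusted limma p (vertical axis) for all 22518 probe sets tested, with the 20 RGS probe sets in red. All RGS points lie under the dashed line, which marks the largest p that passed at an adjusted p under 0.05.

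Rgs2, Rgs3, Rgs4, Rgs5 and Rgs16 belong to the R4 subfamily, mostly small proteins with little beside the RGS domain, though Rgs3 also has long forms. Rgs2, Rgs4, Rgs5 and Rgs16 lie on chromosome 1, where Rgs4 and Rgs5 are next to each other in gene order, Rgs16 is next to Rgs8, and Rgs2 is next to Rgs13. The 250 bases before the transcription start of Rgs2, the member with the largest difference, are shown with those of its relatives Rgs4 and Rgs5. The sequences are from RefSeq (GRCm38.p6), which had a promoter entry for 9 of the 10 genes, and are written 5′ to 3′ on the gene's own strand. Rgs2 is at chr1:144004150-144004399 (minus strand), Rgs4 at chr1:169747643-169747892 (minus strand) and Rgs5 at chr1:169655251-169655500 (plus strand). Capitals mark the half-site of the cAMP response element, spelled TGACG, the CCAAT box, whose name is its spelling, and the core promoter motif spelled TATAAA. Each was searched on both strands, so that it can also stand in its reverse complement, and no matches overlap.
Rgs2: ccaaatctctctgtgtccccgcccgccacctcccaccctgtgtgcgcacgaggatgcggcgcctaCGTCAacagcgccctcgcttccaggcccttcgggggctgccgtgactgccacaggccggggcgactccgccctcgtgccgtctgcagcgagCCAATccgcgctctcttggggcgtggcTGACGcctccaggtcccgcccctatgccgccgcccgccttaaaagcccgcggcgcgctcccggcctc
Rgs4: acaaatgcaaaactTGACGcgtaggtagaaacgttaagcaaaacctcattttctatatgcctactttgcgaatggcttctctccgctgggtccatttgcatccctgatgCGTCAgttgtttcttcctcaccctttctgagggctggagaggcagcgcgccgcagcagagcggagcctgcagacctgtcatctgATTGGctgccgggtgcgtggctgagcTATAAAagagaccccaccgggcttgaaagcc
Rgs5: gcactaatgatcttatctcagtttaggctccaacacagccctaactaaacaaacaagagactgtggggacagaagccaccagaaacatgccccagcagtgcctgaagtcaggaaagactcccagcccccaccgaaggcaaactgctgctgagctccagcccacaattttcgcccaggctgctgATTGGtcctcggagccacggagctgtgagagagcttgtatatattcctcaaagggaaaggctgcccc
The Rgs2 and Rgs4 windows each held 2 copies of the half-site TGACG and the Rgs5 window 0, where 17.8% of the 32851 windows of this length in the table held at least 1. All 3 windows held 1 CCAAT box (33.8% of all windows). The letters TATAAA were found in the Rgs4 window and not in the other 2 (12.4% of all windows). Among the windows of the other members, not shown, the half-site was found only at Rgs12 (in 1 window), the CCAAT box only at Rgs16 and TATAAA only at Rgs3. These are matches of letters in a window, and no binding was measured.

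Rgs2 was measured by 4 probe sets. At the brightest, 1447830_s_at, the labelled transgenic arrays 1, 2 and 3 read 8.85, 8.02 and 7.31, and the non-transgenic arrays 9.53, 9.91 and 10.06. Every labelled transgenic array lay under every non-transgenic one, by 0.68 at the closest. The means were 8.06 ± 0.77 (SD, n = 3) and 9.83 ± 0.27, a difference of -1.77 ± 0.38 (limma SE; 95% interval from -2.71 to -0.83). This is 3.41-fold lower in the labelled transgenic group, at an unadjusted p of 0.00344 and an adjusted p of 0.12 in limma. In bulk tissue, fewer cells of a type and less RNA per cell cannot be told apart.

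The other bright Rgs2 probe sets gave nearly the same picture. At 1419247_at the labelled transgenic arrays read 8.82, 7.76 and 7.43 and the others 9.24, 9.82 and 9.68. The difference was -1.58 ± 0.37 (adjusted p = 0.14 in limma). At 1419248_at the labelled transgenic arrays read 8.43, 7.21 and 6.88 and the others 8.84, 9.39 and 9.26. Here the difference was -1.65 ± 0.41 (adjusted p = 0.15 in limma). In all 3 probe sets labelled transgenic array 1 was the nearest to the non-transgenic arrays and array 3 the farthest, and non-transgenic array 1 was the lowest of its group. The spread within the labelled transgenic group was larger than in the other group at each. The fourth probe set, 1443250_at, was dim, from 3.37 to 3.71, and its groups overlapped (-0.13 ± 0.10, adjusted p = 0.588 in limma). It lies just above the brightness filter, where a difference could hardly be seen. The 4 probe sets measure 1 gene on the same arrays and are not independent.

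**Figure D3:**
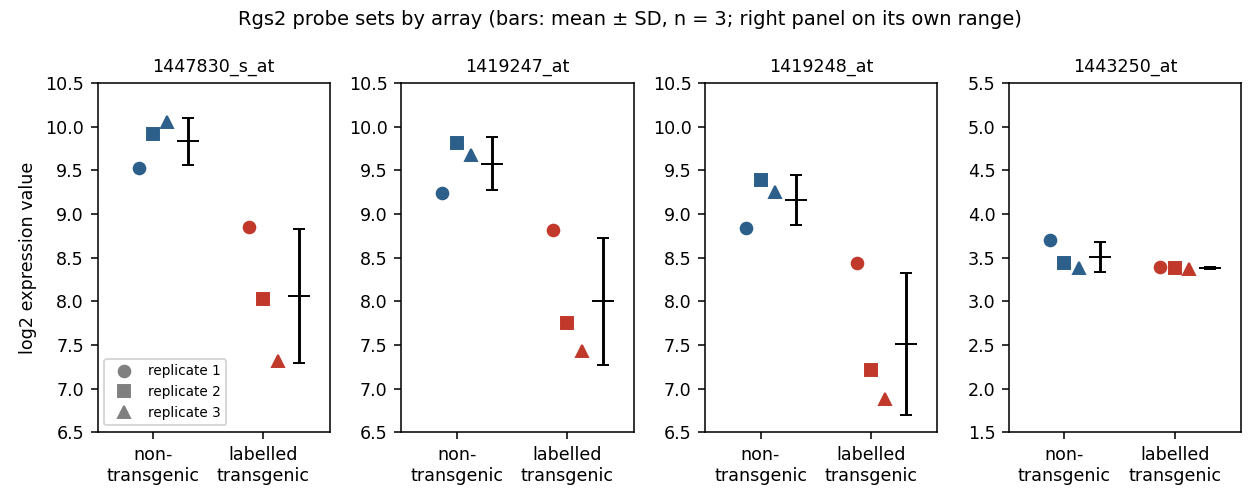
Log2 expression value (vertical axis) of the 4 Rgs2 probe sets on each of the 6 arrays, by group, with mean ± SD (n = 3) as black bars. At the 3 bright probe sets the labelled transgenic arrays all lie under the non-transgenic ones, and the dim probe set (right panel, own range) stays between 3.37 and 3.71.

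In the order of scanning, the values of 1447830_s_at were 7.31 (labelled transgenic array 3), 8.02 (array 2) and 8.85 (array 1), then 9.53 (non-transgenic array 1), 10.06 (array 3) and 9.91 (array 2). Rgs2 was thus higher on each later array up to the fifth, within the labelled transgenic group as well as across groups. At the other 2 bright probe sets it was higher on each later array over all 6 scans, from 7.43 to 9.82 at 1419247_at and from 6.88 to 9.39 at 1419248_at. The part of scan order in the result was not tested. A fit that had the station as a block gave a difference of -1.47 ± 0.58 (adjusted p = 0.317 in limma). Since station 3 held non-transgenic arrays only, that estimate is by construction the contrast within station 2, of 3 labelled transgenic arrays against 1 non-transgenic array. Fitted on those 4 arrays alone, with the lone array assumed to vary like the others, the same difference had an adjusted p of 0.404 in limma. Xist was high on labelled transgenic arrays 1 and 3, which held the highest and the lowest Rgs2 of that group. With the Xist level as a term the difference was -1.80 ± 0.44 (adjusted p = 0.218 in limma). Without labelled transgenic array 1 the 3 bright probe sets were at -2.17, -1.99 and -2.11, and the last of them, 1419248_at, passed (adjusted p = 0.0438 in limma, in a fit where 0.333% of all probe sets passed). It was the only RGS probe set to pass in any of the fits over probe sets.

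**Figure D4:**
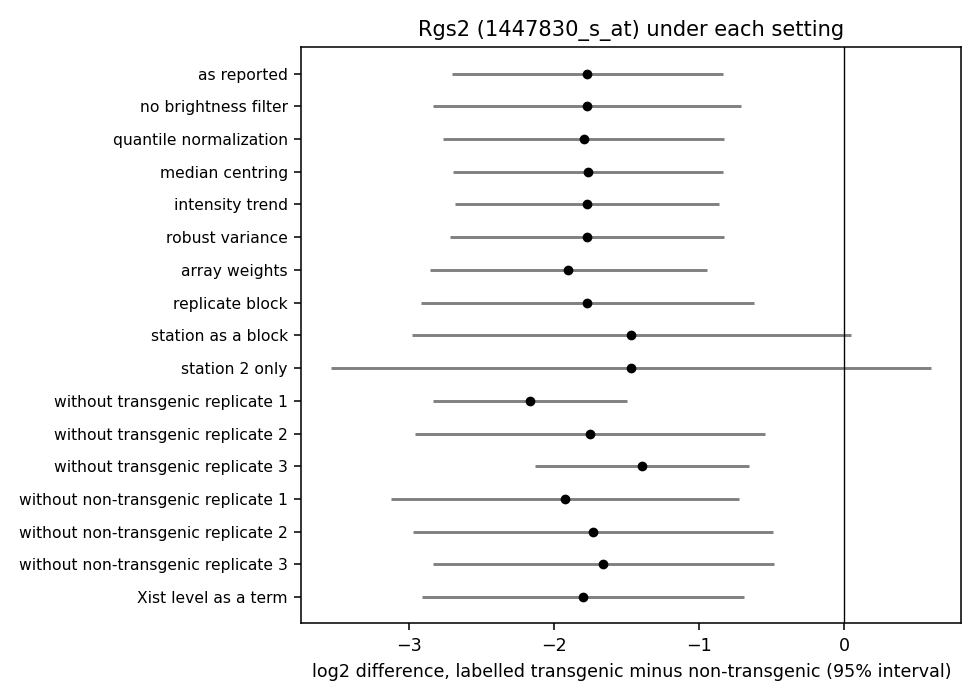
Log2 difference of Rgs2 at probe set 1447830_s_at (horizontal axis, labelled transgenic minus non-transgenic) with its 95% interval, for the reported fit and each alternative fit over probe sets. The difference stays between -2.17 and -1.39, and the interval includes 0 with the station as a block and within station 2.

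The 5 genes outside the family whose brightest probe set followed Rgs2 most closely over the 6 arrays were Ano10, Smco1, Ephx2, Eci2 and Cyb5r4, with Pearson correlations from 0.991 to 0.995. Ano10, of the anoctamin family, read 8.91, 8.47 and 8.13 on the labelled transgenic arrays and 9.37, 9.58 and 9.51 on the others. Eci2, an isomerase of fatty acid oxidation, read 11.23, 11.05 and 10.91 against 11.31, 11.36 and 11.43. Ephx2 is the soluble epoxide hydrolase and Cyb5r4 a cytochrome b5 reductase. All 5 were lower in the labelled transgenic group, by 0.98, 0.82, 0.46, 0.30 and 0.14 on the log2 scale in that order, and none passed (lowest adjusted p = 0.107 in limma). These 6 points share 2 groups and their scan order, and the 5 genes were picked by this measure from all tested genes outside the family, so the correlations are a description.

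Rgs3, which acts on Gi and Gq, was measured by 4 probe sets. The brightest, 1425296_a_at, read 7.39, 7.52 and 7.52 on the labelled transgenic arrays and 7.48, 7.40 and 7.59 on the others, and the groups overlapped. Its difference was -0.01 ± 0.08 (95% interval from -0.21 to 0.19, adjusted p = 0.957 in limma). A pair of further probe sets, 1449516_a_at and 1425701_a_at, were at 0.00 ± 0.15 and -0.03 ± 0.20. The dimmest, 1454026_a_at, read 4.91, 4.75 and 4.56 against 4.47, 4.57 and 4.35, with overlap, and was at 0.28 ± 0.11 (adjusted p = 0.298 in limma). Rgs3 has long and short forms, and the form that each probe set reads was not determined here.

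Rgs4, which acts on Gi and Gq, was measured by 3 probe sets that did not point one way. The brightest, 1416286_at, read 7.29, 7.39 and 7.34 on the labelled transgenic arrays and 7.47, 7.49 and 7.69 on the others. The groups did not overlap, with a gap of 0.084, and the difference of -0.21 ± 0.08 had an adjusted p of 0.293 in limma. The probe set 1416287_at was at 0.32 ± 0.23 (adjusted p = 0.549 in limma) with overlapping groups, and 1448285_at, near the filter, at 0.05 ± 0.07. Averaged over its probe sets Rgs4 was at 0.055, so the sign of its difference turned with the choice of probe set.

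Rgs5, a marker of pericytes and vascular smooth muscle, had 4 probe sets, all bright. The brightest, 1417466_at, read 13.38, 13.42 and 13.45 on the labelled transgenic arrays and 13.36, 13.53 and 13.41 on the others. The groups overlapped at all 4, with differences of -0.02, -0.04, -0.10 and -0.06. Rgs5 had the narrowest interval of the brightest probe sets, from -0.20 to 0.16 (adjusted p = 0.925 in limma). Its sign turned when the station was a block, to 0.051. The 12 pericyte and smooth muscle markers were all above the filter, and none passed, with a median of -0.15. Of the 12, 9 had a difference below 0 and 3 above 0, where 5248 of all 11016 genes tested were below 0. These markers gave 5 at an unadjusted p under 0.05, against 18.2% of all genes tested. Their mean log2 level ran from 8.78 to 9.02 on the labelled transgenic arrays and from 8.89 to 9.19 on the others. Abcc9, a potassium channel regulator of pericytes and heart muscle, was at -0.36 ± 0.08 (adjusted p = 0.13 in limma) and Des, the muscle filament desmin, at 0.30 ± 0.07 (adjusted p = 0.13 in limma).

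Rgs16, the remaining R4 member, had values from 2.78 to 3.25 on all arrays at its 3 probe sets, below the filter, so no difference was tested there. Rgs6 belongs to the R7 subfamily, which works as a complex with the G protein subunit Gnb5 and limits Gi signals that slow the heart. Its tested probe set, 1452399_at, read 5.61, 5.07 and 5.17 on the labelled transgenic arrays and 5.55, 5.31 and 5.39 on the others. The groups overlapped, and the difference of -0.13 ± 0.16 had an adjusted p of 0.724 in limma. Gnb5 itself was at -0.16 ± 0.10 (adjusted p = 0.504 in limma).

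Rgs10, Rgs12 and Rgs14 form the R12 subfamily, which acts on Gi. Rgs10, a short member abundant in immune cells, had 1 probe set, which read 6.54, 6.87 and 6.85 on the labelled transgenic arrays and 6.12, 6.49 and 6.47 on the others. The groups were apart by 0.048, and the difference was 0.39 ± 0.14 (1.31-fold, adjusted p = 0.26 in limma). With the station as a block Rgs10 was at 0.63. Rgs12, a long scaffold protein with a GoLoco motif, read 5.72, 5.75 and 5.87 against 6.29, 6.01 and 5.85 at its tested probe set. The groups overlapped, at -0.27 ± 0.12 (adjusted p = 0.358 in limma), and Rgs12 was at -0.50 when the station was a block. Its other probe sets lay below the filter, as did the single one of Rgs14, which read between 2.78 and 3.12.

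Rgs19, of the RZ subfamily, acts on Gi and Gz. At its brighter probe set, 1417786_a_at, it read 5.89, 5.79 and 6.37 on the labelled transgenic arrays and 5.82, 5.29 and 5.51 on the others, with overlap. The difference was 0.48 ± 0.20 (1.39-fold, adjusted p = 0.309 in limma), while the dimmer probe set 1434940_x_at was at 0.02 ± 0.13. The brighter one was at 0.20 when the station was a block.

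**Figure D5:**
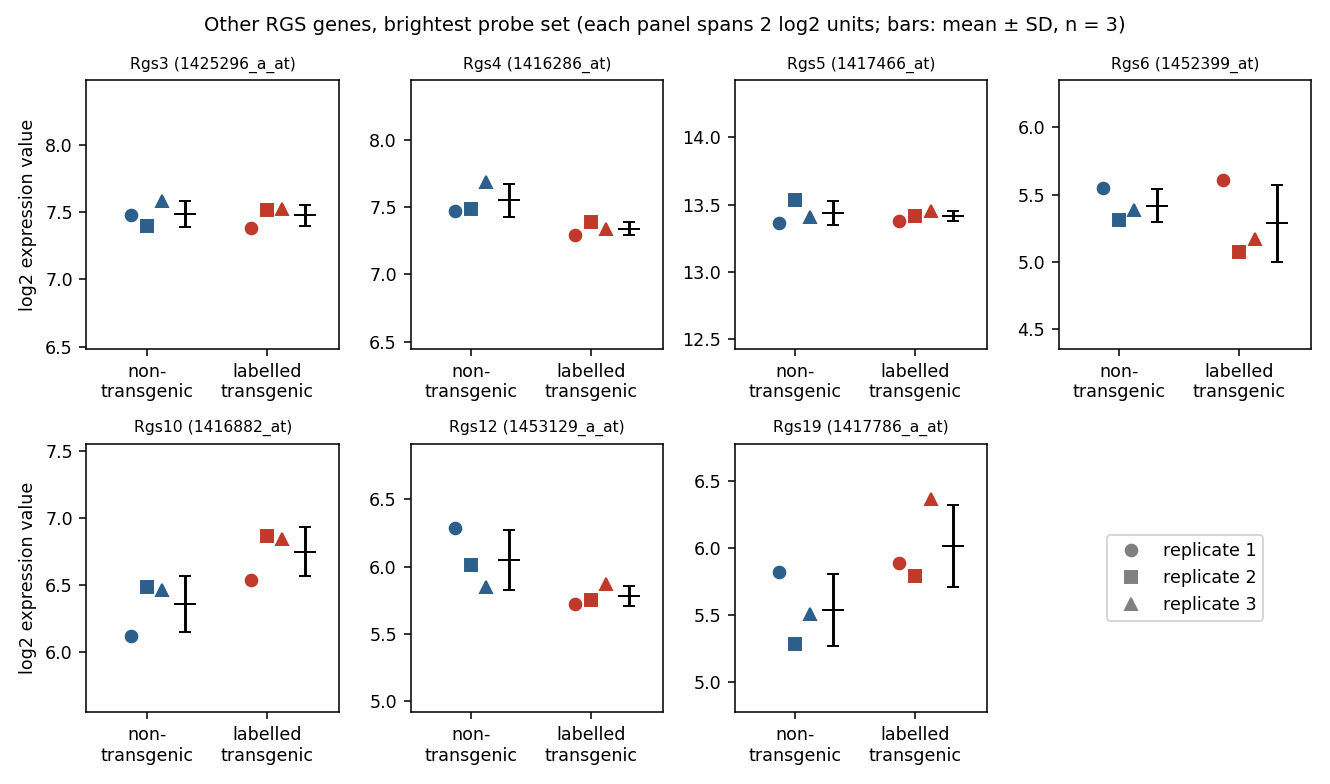
Log2 expression value (vertical axis, each panel spanning 2 log2 units) of the brightest probe set of the other 7 RGS genes tested, on each array by group, with mean ± SD (n = 3) as black bars. Rgs4 and Rgs10 have groups that do not overlap, and the other 5 have groups that overlap. Of all probe sets tested, 23% had groups that did not overlap.

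Markers of macrophages and fibroblasts were mostly higher, as Rgs10 and Rgs19 were, in the labelled transgenic group. Among all 11016 genes tested, 5768 had a difference above 0, and 18.2% had an unadjusted p under 0.05 in limma. Of 9 macrophage and myeloid markers above the filter (of 10), 8 had a difference above 0 and none passed (7 at an unadjusted p under 0.05), with a median of 0.46. Their mean log2 level ran from 8.10 to 8.16 on the labelled transgenic arrays and from 7.57 to 7.76 on the others. Adgre1 and Cd68, macrophage surface and lysosomal proteins, were at 0.68 ± 0.10 and 0.96 ± 0.20 (adjusted p = 0.0695 and 0.113 in limma). Of 10 fibroblast markers 8 had a difference above 0 and 2 below 0. None of these markers passed (7 at an unadjusted p under 0.05), with a median of 0.67. Their mean level was 9.94 to 10.46 against 9.52 to 9.89, with Dcn, the proteoglycan decorin, at 0.38 ± 0.06 (0.21 at its other probe set) and Pdgfra, a growth factor receptor, at 0.68 ± 0.14 (0.15 and 0.76 at its other probe sets). The part of these cells in the Rgs10 and Rgs19 values was not tested.

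Of all genes tested, 0.227% passed and 18.2% had an unadjusted p under 0.05 in limma, the background for the short lists that follow. None of 10 endothelial markers passed or had an unadjusted p under 0.05 (median 0.04). Pecam1 and Cdh5 were at -0.20 and -0.17 (0.14 at the other Cdh5 probe set, so its sign turned with the probe set). None of 4 lymphocyte markers did (median 0.01), with Cd4 at -0.07 and Ms4a1 at 0.04. None of the 10 cardiomyocyte markers passed or had an unadjusted p under 0.05 either (median -0.02), with Ryr2 at -0.29 and Pln at -0.12. Of 3 atrial and nodal markers 1 passed, and it was the only 1 of them at an unadjusted p under 0.05. This was Nppa, the gene of atrial natriuretic peptide, which rose 4.58-fold (adjusted p = 0.0257 in limma). Over the alternatives its adjusted p lay between 0.0139 and 0.169, and it passed in 2 of the 6 fits with an array left out. Myl4 was at -0.12. None of 3 neuron and Schwann cell markers passed and 1 had an unadjusted p under 0.05, with Uchl1 at 0.78 and Sox10 at 0.12. Alas2, the only erythroid marker above the filter, was at -0.20.

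The rest of the RGS family was scarcely measurable. Of 11 further RGS genes 9 had a probe set, and 1 of these, Rgs9 of the R7 subfamily, lay above the filter, where it was at 0.02 ± 0.06 (adjusted p = 0.913 in limma). The other 8, among them Rgs1, Rgs13 and Rgs18 of the cluster beside Rgs2, had values from 2.05 to 3.38. Among partner proteins of the family, Rgs7bp, a membrane anchor of R7 complexes, was at -0.46 ± 0.27 at its brightest probe set and -0.69 at another, with 0 of 2 partners passing. Rgs7bp was dim, from 3.28 to 4.51 at the former.

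Among the G protein alpha subunits on which RGS proteins act, 1 of 9 rose, 0 fell and 8 did not pass (median 0.03). At an unadjusted p under 0.05 there were 3 of 9, against 18.2% of all genes tested, of which 0.227% passed. Gnao1, which encodes the alpha subunit Go, a target of several RGS proteins, rose 2.94-fold. It read 7.80, 7.97 and 8.21 on the labelled transgenic arrays and 6.36, 6.72 and 6.24 on the others (adjusted p = 0.041 in limma). This call was lost with any single array left out, and over the alternatives its adjusted p lay between 0.0359 and 0.169. Averaged over all its probe sets, dim ones included, Gnao1 was at 0.46. Gnai1, a Gi alpha subunit, was at -0.73 ± 0.17 (adjusted p = 0.141 in limma). Of 11 effectors of the Gq pathway 1 rose, 0 fell and 10 did not pass (median -0.10). That was Prkcd, a protein kinase C isoform, 1.77-fold higher at 7.19, 7.21 and 7.31 against 6.39, 6.48 and 6.38 (adjusted p = 0.0266 in limma, between 0.0235 and 0.169 over the alternatives), while its other probe set was at 0.02. The call of Prkcd held in 1 of the 6 fits with an array left out. Prkd1, protein kinase D, was at -0.51 ± 0.16 (adjusted p = 0.222 in limma) and at -0.32 at its other probe set.

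None of 9 Gq-coupled receptor genes passed, with a median of 0.10. At an unadjusted p under 0.05 there were 4 of 9, against 18.2% of all genes tested. F2r, the thrombin receptor, was at 0.45 ± 0.11 and Lpar1, a receptor for lysophosphatidic acid, at 0.39 ± 0.09 (adjusted p = 0.142 and 0.144 in limma). The other Lpar1 probe set was at 1.25 (adjusted p = 0.078 in limma). None of 2 Gi-coupled receptor genes passed, with S1pr1 at -0.43 and Cxcr4 at 0.23. None of 5 receptor kinases and arrestins, which act on the receptor rather than on the G protein, passed. Of the 5, 3 had an unadjusted p under 0.05, against 18.2% of all genes tested. Grk5, a receptor kinase, was at 1.05 ± 0.12 with an adjusted p of 0.0502 in limma, just outside the threshold, and Grk3 at -0.96 ± 0.14 with an adjusted p of 0.0695. Other probe sets of these genes gave smaller differences, of 0.70 for Grk5 and of -0.70 and -0.05 for Grk3. None of 6 other regulators of G protein or Rap cycling passed, with a median of -0.03. Of the 6, 4 had an unadjusted p under 0.05, against 18.2% of all genes tested. Gpsm1, a GoLoco protein, was at -0.57 ± 0.10 and Rap1gap, which switches off the small G protein Rap, at -1.37 ± 0.27 (adjusted p = 0.0865 and 0.102 in limma).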

How the data were processed

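RNA of mouse heart had been hybridised to 6 Affymetrix arrays of 45101 probe sets. The deposited values were log2 expression values, made by the authors with GCRMA (version not stated) per the submitters' processing notes. Other deposited files were instrument text records, from which station, scan order and the word typed in the chip lot field were read. Groups and replicate numbers came from the sample titles. After 64 control probe sets were left out, probe sets with a mean above the median were kept (22518). They were fitted in R 4.3.3 by lmFit and eBayes of limma 3.58.1, 2-sided, with Benjamini-Hochberg adjustment over all of them, and ± after a difference is the moderated standard error. A gene was represented by its brightest probe set. Names are those of the 2016 platform annotation, and all 27 RGS probe sets matched RefSeq by gene ID and symbol.

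The named genes were all 10 RGS members, every passing gene of 17 further lists (cell type lists excepted), the 2 with the smallest p in each, and the 5 most correlated with Rgs2. Nppa, from a cell type list, is also named as it passed. The members and lists were chosen with earlier results of these data known. Lists are described by counts and medians, without a test. The fit was tested on simulated data with independent noise and planted changes. That simulation held no station, scan order or sex, so it says nothing about them. Same-numbered arrays did not deviate together, so the numbers were not taken as pairs. Alternatives covered the filter, scaling, variance model, array weights, replicate number and station as blocks, probe set choice and each array left out. The Xist term, the mean of probe sets above the filter and the other Rgs2 probe sets were added after seeing the data.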

Additional observations from a re-analysis of the deposited data

How the results depend on the processing

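No RGS probe set passed limma's threshold in the reported fit, and 1, the Rgs2 probe set 1419248_at, passed without labelled transgenic array 1 (range with arrays left out, 0 to 1). Over all probe sets 49 passed. This count was 15 without the brightness filter, 108 with an intensity trend, 2 with the station as a block, and 0 within station 2, with the Xist level as a term or with the replicate block, and from 0 to 75 with single arrays left out. At an unadjusted p under 0.05 these fits gave 3771 within station 2, 3126 with the Xist term and 3324 with the replicate block. The count was 75 when labelled transgenic array 1 was left out and 5 when non-transgenic array 1 was. It was 0 without labelled transgenic array 2 (2976 unadjusted), labelled transgenic array 3 (2532), non-transgenic array 2 (3430) and non-transgenic array 3 (3033). The fits with an array left out and the fit within station 2 had fewer samples. Those with the station, the replicate number or the Xist level had added terms, which leave less to estimate the spread. The cause of the shifts was not tested.

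Rgs2 stayed below 0 and did not pass in any of 20 alternatives, which do not hold the pass of 1419248_at without labelled transgenic array 1. Of the 20, 16 kept its brightest probe set. The other 4 took another bright probe set or a mean of its probe sets in the reported setting. Its difference lay between -2.17 and -1.28 with adjusted p from 0.0648 to 0.404 in limma, and with arrays left out from -2.17 to -1.39. The replicate block left it at -1.77 (adjusted p = 0.236), and changed no call of an RGS gene. Replicate number did not pair the arrays, since same-numbered arrays had correlations of -0.08, -0.17 and -0.01. Rgs6, Rgs10, Rgs12 and Rgs19 kept their sign in all 18 alternatives. The sign of Rgs3, at -0.01, turned to 0.017 with the Xist term and 0.061 as the mean of its probe sets (all, or those above the filter), and with arrays left out it ran from -0.059 to 0.036. Rgs4 turned to 0.055 as the mean of its probe sets, all or above the filter. Rgs5 turned to 0.051 with the station as a block and within station 2, which are the same contrast, and with arrays left out it ran from -0.056 to 0.029. None of these passed, so the sign carries no call. Values below the brightness filter differed by -0.33 to 0.13 and show only that these probe sets were too dim to follow a difference.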
